A study of Homo sapiens with 8 samples.

Results

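A set of 29 genes known as transcriptional targets of the tumour suppressor p53 was followed across 4 groups of human leukaemia cells profiled on arrays. The members were listed by gene symbol, and the list was drawn up with earlier results of these data known. Of the 29, 27 had a probe set naming them alone, and the probe set of highest mean level over the arrays stood for the gene. Of these, 25 passed a filter on dim probe sets, among 14162 genes tested in all. BTG2 and FDXR were not analysed here. EDA2R, a receptor of the tumour necrosis factor family, stayed below the filter with a highest signal of 42.6 on any array. SPATA18, a gene of mitochondrial quality control, did so with a highest signal of 31.2. A member that is dim in 1 group and bright in another passes the filter through the bright group, so counts over the 25 describe the genes measured.

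p53 is a transcription factor that is kept scarce in unstressed cells because the ubiquitin ligase MDM2, with its partner MDM4, holds it inactive and marks it for destruction. DNA damage and oncogene signalling release it, and it then binds DNA elements near its target genes and raises their transcription. The targets halt the cell cycle, repair DNA, adjust metabolism or trigger cell death, and several of them, MDM2 first, feed back to restrain p53. PRMT5, an arginine methyltransferase, is known to modify p53 and many other proteins.

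All 8 samples are labelled as HEL, an erythroleukaemia line whose growth is driven by an activating mutation of the kinase JAK2, grown in RPMI medium with serum. In the drug arm, 2 samples were treated with CEP701 (lestaurtinib, a kinase inhibitor that blocks JAK2 among other kinases) at 0.5 µM for 16 h, and 2 received DMSO, the vehicle. In the shRNA arm, 2 samples came from a stable line carrying a lentiviral pLKO vector with an shRNA against PRMT5, and 2 from cells with a scrambled shRNA in the LKO vector. A single hairpin was used, so its other effects cannot be told apart from loss of PRMT5. The labels do not say that replicates were separate cultures, so the p-values reflect how far these samples spread, and that spread may be only technical. With 2 arrays a group, an exact permutation test of a single gene could not go below a two-sided p of 0.333, and calls rest on the spread shared across genes in limma.

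The arrays fell into blocks by arm. Over the genes tested, log2 values correlated at 0.964 to 0.978 within a group and at 0.954 to 0.972 between the groups of an arm, but at 0.804 to 0.845 between arms. The share of probe sets above the filter was 46.2% to 53%, and the 5′ to 3′ signal ratio of actin, a measure of RNA quality, was 0.116 and 0.161 with CEP701, 0.199 and 0.198 with DMSO, 0.187 and 0.335 with the PRMT5 shRNA, and 0.141 and 0.179 with scramble. All 8 erythroid and megakaryocyte markers measured lay above the filter on both arrays of every group, and the 7 other than PF4 summed to 25170 to 27280 in the drug arm and 22400 to 27500 in the shRNA arm. PF4, a platelet chemokine, read 1054 to 1980 in the drug arm and 21810 to 45440 in the shRNA arm. GATA1 (-0.55) and NFE2 (-0.74) were called lower in scramble than in DMSO cells. PF4 and EPOR (1.198, limma adjusted p = 0.00209) were called higher, and TAL1, KLF1, GFI1B and ITGA2B were not called. The 3 epithelial markers EPCAM, KRT19 and CDH1 did not lie above the filter in every group. In the drug arm their summed signal was 35.1 to 71.5, with none above the filter. In the shRNA arm it was 2592 to 5883, with all 3 above it. Of the 3 T cell markers, CD2 read 854 to 1234 in the drug arm and 98.3 to 168 in the shRNA arm. CD3D and CD3E summed to 69.7 to 112.8 and 65.4 to 163. CD3D, a dim gene, read 8.44 and 7.75 with DMSO and 104 and 58.8 with scramble. It was called higher in scramble (2.29, limma adjusted p = 0.0138), and CD3E was not called. The 2 B cell markers measured summed to 307 to 449 in the drug arm and 179 to 348 in the shRNA arm, and the 3 fibroblast markers to 372 to 562 and 294 to 330. The arms differ in vector and in treatment, and any difference in stock, time in culture or batch cannot be told apart from these. In bulk samples, fewer cells that express a gene and less RNA per cell cannot be told apart either. PRMT5 read 664 and 315 with its shRNA against 1794 and 984 with scramble (log2 difference -1.52, limma adjusted p = 0.22), lower on both arrays but not called. With the pairs of label suffixes described further on as a replicate block, it was called (adjusted p = 8.92e-05).

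The element to which p53 binds is a pair of adjacent 10-base sites, each with the core CNNG, and it was searched for near the start sites of the members on both strands. The windows, 250 bases before to 50 bases after the start, are those of RefSeq on GRCh38.p14. A match kept both cores, had a spacer of at most 1 base and at most 3 mismatches to the p53 consensus elsewhere. Of the 25 members tested, 21 had a window, and 5 of these (23.8%) held an element, against 795 of 27305 genes (2.91%). PHLDA3, RRM2B, TNFRSF10B and TP53INP1 had no window here. A match describes letters and is not a binding site shown by these data, and a window without one lacks only these letters. The 5 are shown because they are the sequence feature that members from several roles share; capitals mark the element within 30 bases of the plus strand.
DDB2, chr11:47214975-47215004: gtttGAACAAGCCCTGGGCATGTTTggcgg
MDM2, chr12:68808918-68808947: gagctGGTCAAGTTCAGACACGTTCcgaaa
FAS, chr10:88991304-88991333: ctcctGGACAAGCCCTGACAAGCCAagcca
AEN, chr15:88621301-88621330: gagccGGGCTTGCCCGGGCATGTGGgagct
GDF15, chr19:18386178-18386207: acctgcacAGCCATGCCCGGGCAAGAACtc
The DDB2 element had 0 mismatches and a spacer of 1 base, and it began at position 6 after the start site. Those of MDM2, FAS and AEN had 2 mismatches each. The GDF15 element had 3 and began at position 29. These 5 genes did not share 1 pattern of expression: DDB2, FAS and GDF15 were higher in scramble than in DMSO cells, AEN was lower, and MDM2 was not called, as the values further on show.

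**Figure D1:**
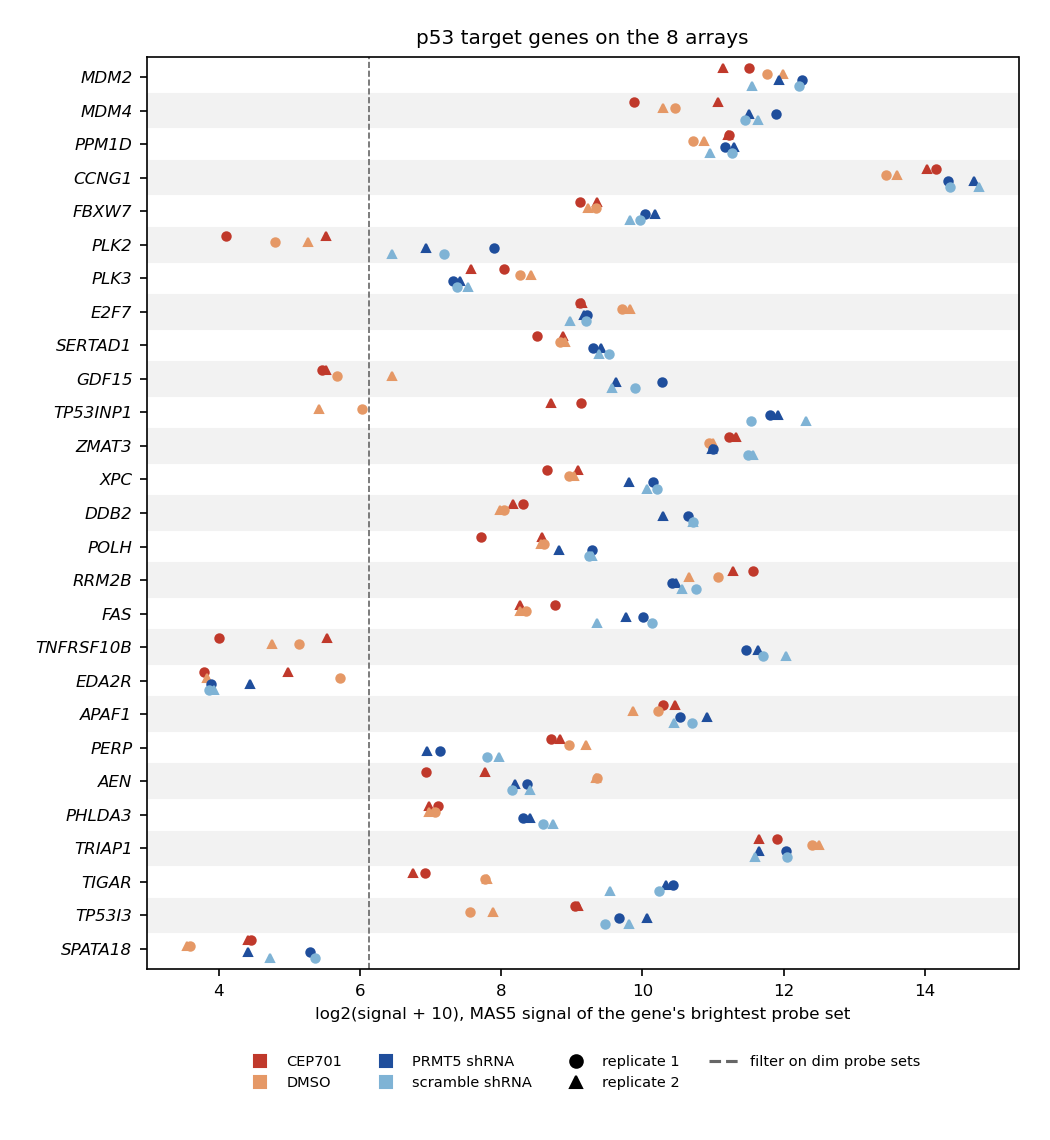
Level of each of the 27 measured members on the 8 arrays, as log2(signal + 10) of the gene's brightest probe set. Colours give the 4 groups, circles and triangles the replicates, and the dashed line the filter at a signal of 60. For TNFRSF10B, GDF15 and DDB2 all 4 shRNA-arm arrays lie to the right of all 4 drug-arm arrays, whereas TP53INP1 also separates CEP701 from DMSO.

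CEP701 moved few of these genes. TP53INP1 and TP53I3 rose and AEN fell, the other 22 tested members did not pass the test, and the members did not shift one way. In the fit of all 8 arrays, 3 of 25 members (12%) passed an adjusted p of 0.05, against 5.78% of all genes tested. The 2 that rose compare with 3.74% of all genes and the 1 that fell with 2.04%. The members' median log2 difference was -0.12, with 11 positive and 14 negative, and the median of all genes was 0.10. With the mean of each gene's probe sets, these medians were 0.09 and 0.11. Scaling moved the median of all genes, to 0.03 after quantile normalization, -0.06 after median scaling and -0.41 after scaling to the poly-A controls. The called members became 2 higher and 1 lower, 2 and 4, and 1 and 4, and the calls over all genes went from 530 higher and 289 lower to 279 and 173, 317 and 556, and 92 and 1084.

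TP53INP1, a stress-induced protein that promotes growth arrest and cell death, read 55.4 and 32.8 on the DMSO arrays and 551 and 408 on the CEP701 arrays. Both treated arrays stood far above both vehicle arrays, which lay below the filter of 60. The log2 difference was 3.19 ± 0.30 (SE, n = 2 per group), 9.14-fold, with a limma adjusted p of 0.00195. Since the DMSO signals are low, the size depends on the 10 added before the logarithm: it was 3.44 with 1 added and 2.49 with 50. The rise rests on 1 probe set, as the others of the 3 lay below the filter and differed by 0.26 and 0.84. TP53INP1 was called in 19 of 20 alternative settings, with adjusted p from 5.19e-06 to 0.0565, and was lost only without CEP701 replicate 1.

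TP53I3, an NADPH-dependent quinone oxidoreductase linked to oxidative stress, read 178 and 226 with DMSO and 518 and 534 with CEP701. The groups did not overlap, and the treated arrays were close to each other. The log2 difference was 1.35 ± 0.23 (SE, n = 2), 2.54-fold, adjusted p = 0.0149. The call held in 15 of 20 alternatives and was lost when arrays were scaled to the poly-A controls and when any 1 drug-arm array was left out (adjusted p over the alternatives 0.000456 to 0.139).

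AEN, a nuclease that acts in apoptosis, went the other way. It read 643 and 641 with DMSO and 113 and 208 with CEP701, so both treated arrays were well below both vehicle arrays. The log2 difference was -1.99 ± 0.29 (SE, n = 2), 3.98-fold lower, adjusted p = 0.00946. It was called in 17 of 20 alternatives, the exceptions being those without CEP701 replicate 1 or either DMSO replicate (adjusted p 0.000551 to 0.103).

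How many members were called depended on which arrays estimated the spread. With the drug-arm arrays fitted alone, 10 of 25 members passed, and so did 22.7% of all genes. Besides the 3 above, these were CCNG1 (log2 difference 0.57), PPM1D (0.43) and RRM2B (0.57), which were higher with CEP701, and TRIAP1 (-0.66), E2F7 (-0.63), MDM2 (-0.55) and TIGAR (-0.95), which were lower. The smallest limma adjusted p among these 7 was 0.00362, for TRIAP1, and the largest 0.0441, for TIGAR. The MDM2 probe sets above the filter were divided with CEP701, 3 higher and 4 lower, from -0.55 to 0.83. None of the 7 members passed in the fit of all arrays as deposited. There, 10 members, and 24% of all genes, had an unadjusted limma p under 0.05. With a replicate block in the shRNA arm 10 members were called too, and 22.3% of all genes. Leaving out any 1 drug-arm array lowered the count of calls among the members and among all genes. Leaving out either scramble replicate raised both counts. Without CEP701 replicate 1 or 2 the members' median log2 difference was 0.07 or -0.34, beside 0.12 or 0.08 for all genes. Without DMSO replicate 1 or 2 it was 0.004 or -0.09, beside 0.08 or 0.09.

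**Figure D2:**
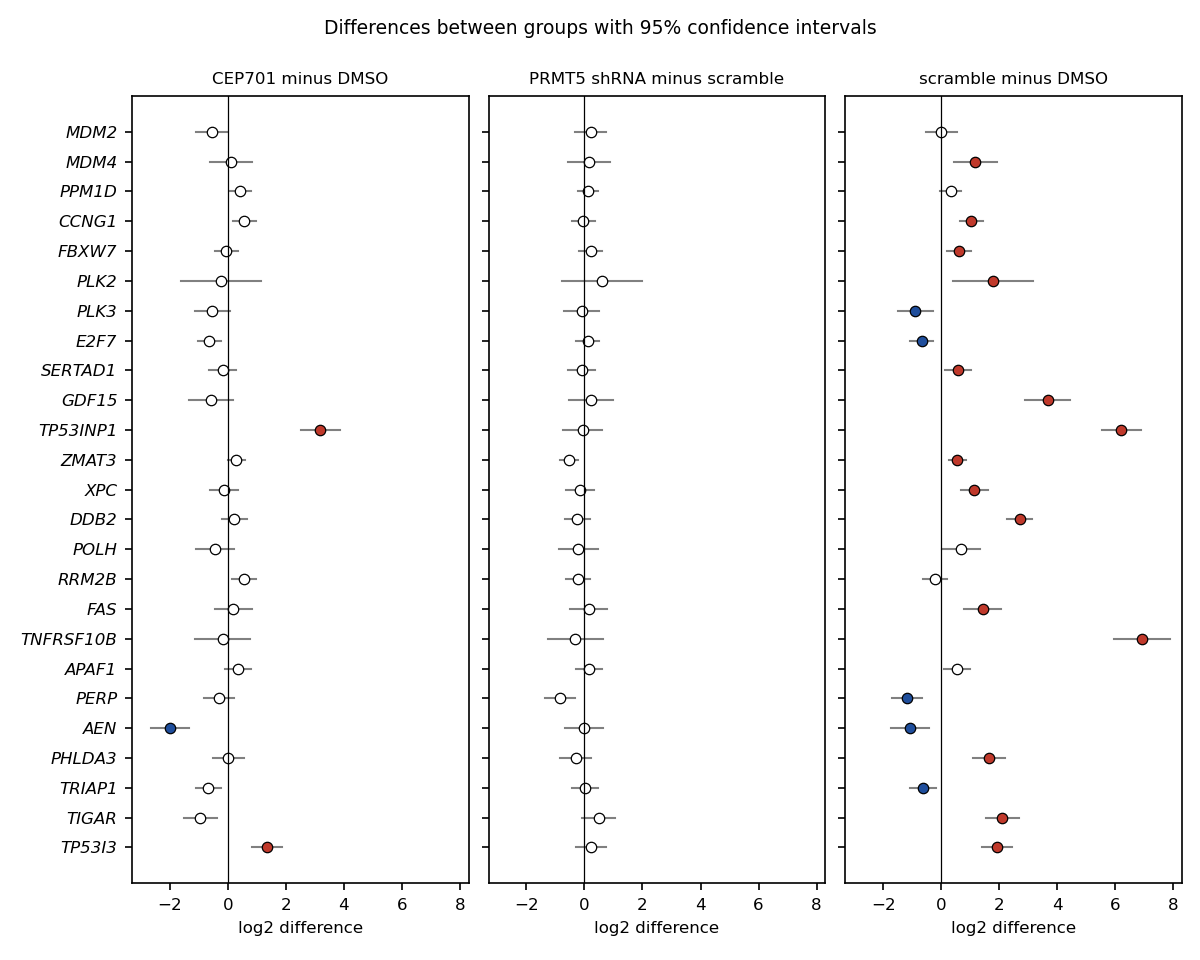
Log2 difference of each of the 25 tested members in 3 comparisons, with 95% confidence intervals from limma. Filled points passed an adjusted p of 0.05, red for higher and blue for lower; 3 are filled for CEP701, 0 for the PRMT5 shRNA and 20 between the control cells of the arms.

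The PRMT5 shRNA left the members without a called change. In the fit of all arrays, 0 of 25 passed limma's test, against 0.148% of all genes, and 2 had an unadjusted p under 0.05, as 6.69% of all genes did. The median log2 difference was -0.01, with 12 positive and 13 negative, and the median of all genes was 0.00. The low count was not special to the members, as only 21 of 14162 genes were called.

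The 2 members with an unadjusted p under 0.05 were both lower with the shRNA. ZMAT3, a zinc-finger protein that binds RNA and restrains growth, read 2865 and 3029 with scramble and 2027 and 2022 with the PRMT5 shRNA. The groups did not overlap, and the log2 difference was -0.54 ± 0.14 (SE, n = 2, limma adjusted p = 0.297). PERP, a membrane protein of cell junctions that takes part in apoptosis, read 213 and 239 with scramble and 130.39 and 113 with the shRNA, again without overlap (log2 difference -0.84 ± 0.23, limma adjusted p = 0.376). Each PRMT5 shRNA sample shares a label suffix with 1 scramble sample, and within these pairs ZMAT3 differed by -0.50 and -0.58 and PERP by -0.67 and -1.01. With that suffix as a replicate block, ZMAT3 was called (adjusted p = 0.0313) and PERP was not (adjusted p = 0.108), while 1.74% of all genes were called. Of the 5 ZMAT3 probe sets above the filter, 4 were lower and 1 was higher with the shRNA. Both PERP probe sets were lower. Across the members, 7 of 25 (28%) were higher in both pairs and 9 (36%) lower in both, against 30.1% and 29.4% of all genes.

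The intervals show what size of shRNA effect these arrays allow. For DDB2 the 95% confidence interval of the log2 difference ran from -0.67 to 0.18, and for CCNG1 from -0.44 to 0.35. For PLK2, a dim and variable gene, it ran from -0.78 to 1.97. A call missed at this precision does not show that a member stayed the same.

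The drug effect and the shRNA effect differed for 1 of 25 members by the test of the difference itself, against 1.43% of all genes. That gene was TP53INP1, whose log2 difference was 3.19 with CEP701 and -0.06 with the shRNA (difference 3.25 ± 0.42, SE, adjusted p = 0.0151). Its DMSO arrays lay below the filter, at 55.4 and 32.8, and its scramble arrays read 2966 and 5068. The call was lost when any 1 drug-arm array was left out. For AEN the difference of effects was -1.98 ± 0.41, with an adjusted p of 0.0542. With the replicate block in the shRNA arm, 10 members passed, and 17.3% of all genes did. The 2 effects, which share no array, had the same sign in 12 of 25 members (48%) and in 43.8% of all genes.

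The members differed most between the control cells of the arms. Scramble cells had higher levels than DMSO cells of 15 members, among them TNFRSF10B, TP53INP1, GDF15, DDB2 and TIGAR, and lower levels of PERP, AEN, PLK3, E2F7 and TRIAP1. This comparison shares its DMSO arrays with the drug comparison and its scramble arrays with the shRNA comparison. It covers everything that differs between the arms, and a large share of all genes differ in it too. Of 25 members, 20 (80%) passed the test, against 45.8% of all genes; 15 were higher, against 25.5%, and 5 lower, against 20.3%. The members' median log2 difference was 0.67, and that of all genes 0.11 with quartiles of -0.54 and 0.83.

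The split into higher and lower depends on how arrays are scaled. The called members were 15 higher and 5 lower as deposited, 12 and 4 after quantile normalization, 11 and 6 after median scaling, and 9 and 5 after scaling to the poly-A controls. For all genes the split was 3608 and 2878, 3035 and 3114, 2455 and 4393, and 2048 and 3827. The median of all genes was -0.05, -0.24 and -0.30 under the 3 alternatives. The members' median minus that of all genes was 0.56 as deposited, 0.61 after quantile normalization and 0.56 after either scaling. Leaving out any 1 DMSO or scramble array lowered the count of called members and also the share of all genes called. The members' median minus that of all genes was then 0.61 (DMSO replicate 1), 0.56 (DMSO replicate 2), 0.57 (scramble replicate 1) or 0.58 (scramble replicate 2). The calls on CCNG1, TP53INP1, DDB2, FAS, TNFRSF10B, PHLDA3, TIGAR and TP53I3, 8 of the 20, were kept in every alternative that was run.

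Among the 5 members that control p53, 3 were higher in scramble cells and none was lower, where 25.5% and 20.3% of all genes were. MDM2, the ubiquitin ligase of p53, read 3463 and 4047 with DMSO, 2910.3 and 2247.5 with CEP701, 4749.6 and 2979 with scramble, and 4892.5 and 3906 with the PRMT5 shRNA. The scramble arrays lay on either side of the DMSO arrays, and the log2 difference was 0.01 ± 0.24 (SE, n = 2, adjusted p = 0.984). The other MDM2 probe sets did not all follow: over the 7 above the filter, scramble minus DMSO ran from -0.51 to 1.64, with 6 positive. MDM4, the partner that masks the activation domain of p53, read 1396.5 and 1236.5 with DMSO, 930.35 and 2145 with CEP701, 2804 and 3173 with scramble, and 3773.5 and 2912 with the PRMT5 shRNA. Every shRNA-arm array was above every drug-arm array, and scramble exceeded DMSO by 1.18 ± 0.32 (SE, adjusted p = 0.0148). The 2 CEP701 arrays fell on either side of the DMSO arrays. Of 6 MDM4 probe sets, 5 were higher in scramble.

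CCNG1, a cyclin G that recruits a phosphatase to MDM2, read 11119 and 12379 with DMSO, 18286 and 16709 with CEP701, 20846 and 27800 with scramble, and 20502 and 26541 with the PRMT5 shRNA. The DMSO arrays were the lowest, the CEP701 arrays lay between them and the shRNA arm, and scramble exceeded DMSO by 1.04 ± 0.18 on the log2 scale (adjusted p = 0.00115). FBXW7, a substrate receptor of a ubiquitin ligase for cyclin E and MYC, read 639 and 589 with DMSO, 542 and 644 with CEP701, 993 and 896 with scramble, and 1041 and 1149 with the PRMT5 shRNA. The arms did not overlap, and the difference was 0.61 ± 0.18 (adjusted p = 0.0193), which was not called under any of the 3 other scalings. PPM1D, the phosphatase WIP1 that reverses phosphorylation of p53, had means of 1762 ± 136 (SD, n = 2) with DMSO, 2380 ± 16 with CEP701, 2215 ± 338 with scramble and 2399 ± 140 with the shRNA, and was not called (log2 difference 0.32, adjusted p = 0.125).

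All 7 tested members listed here under growth arrest and antiproliferative genes were called between the control cells, against 45.8% of all genes. The split was 5 higher and 2 lower in scramble. TP53INP1 read 2966 and 5068 with scramble and 3583 and 3857 with the PRMT5 shRNA. Its 4 groups formed 3 levels, lowest with DMSO, higher with CEP701 and highest in the shRNA arm. Scramble exceeded DMSO by 6.20 ± 0.30 on the log2 scale, 73.5-fold, adjusted p = 7.71e-07. Only 1 of the 3 TP53INP1 probe sets passed the filter. The others differed by -0.64 and 0.82, so the size rests on 1 probe set. GDF15, a secreted stress cytokine, read 41.0 and 78.0 with DMSO, 33.9 and 35.9 with CEP701, 944 and 749 with scramble, and 1234 and 780.01 with the PRMT5 shRNA. The arms did not overlap, and scramble exceeded DMSO by 3.67 ± 0.34 on the log2 scale, 12.7-fold (adjusted p = 3.29e-05). A second GDF15 probe set above the filter did not show this, with a log2 difference of -0.55, and the mean of both gave 1.56 (adjusted p = 0.0112), so the direction rests on 1 probe set, whose suffix marks probes that may also bind other transcripts.

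The remaining genes listed under growth arrest moved less. PLK2, a polo-like kinase of the centrosome, read 17.9 and 28.5 with DMSO, 7.22 and 35.7 with CEP701, 135 and 77.7 with scramble, and 229 and 112 with the PRMT5 shRNA. All drug-arm values were below the filter, and the log2 difference of 1.78 ± 0.61 (adjusted p = 0.038) became 2.13 with 1 added, no longer called (adjusted p = 0.0585), and 1.08 with 50 added. SERTAD1, a regulator of CDK4 and E2F activity, read 447 and 470.03 with DMSO, 354 and 461 with CEP701, 724 and 656 with scramble, and 617 and 671 with the PRMT5 shRNA. The arms did not overlap; the difference of 0.58 ± 0.20 (adjusted p = 0.0409) was not called under any of the 3 other scalings. ZMAT3 read 1961 and 2030.5 with DMSO and 2378 and 2542 with CEP701, and the scramble arrays, given above, were the highest of the 8 (difference from DMSO 0.56 ± 0.14, adjusted p = 0.00797). The PRMT5 shRNA arrays of ZMAT3 lay within the range of the DMSO arrays, so here the arms did overlap. ZMAT3 was no longer called after median or poly-A scaling.

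PLK3, a polo-like kinase of the stress response, read 297 and 334 with DMSO, 253 and 181 with CEP701, 156 and 175 with scramble, and 149 and 161 with the PRMT5 shRNA. The shRNA arm was below the drug arm throughout, and scramble was below DMSO (difference -0.90 ± 0.27, limma adjusted p = 0.0218). This call was lost without any 1 of the 4 arrays compared. Of the 3 PLK3 probe sets above the filter, 2 were lower and 1 was higher in scramble, from -0.895 to 0.03. E2F7, a repressor of cell cycle genes, read 827 and 895 with DMSO, 547 and 554 with CEP701, 578 and 493 with scramble, and 584 and 567 with the PRMT5 shRNA. The DMSO arrays stood alone, above the 6 others. Scramble minus DMSO was -0.68 ± 0.18 (adjusted p = 0.0123), and CEP701 minus DMSO was -0.63 ± 0.18 (adjusted p = 0.0705).

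**Figure D3:**
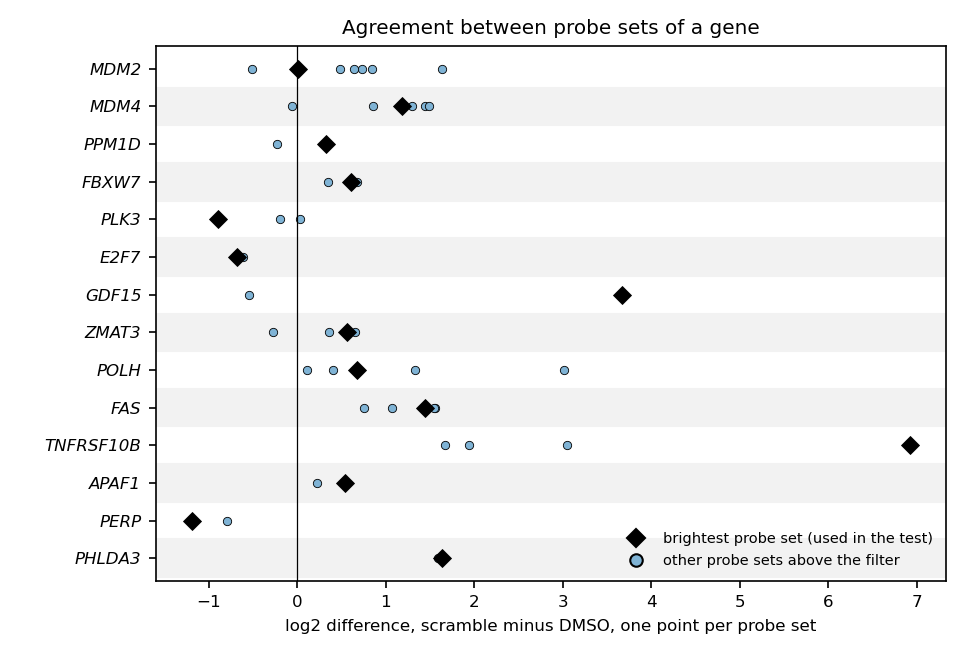
Scramble minus DMSO log2 difference of each probe set above the filter, for the 14 members with more than 1. Diamonds are the probe sets used in the tests and circles the others; the 5 of FAS and the 4 of TNFRSF10B all lie above 0, whereas those of GDF15 fall on both sides.

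Of the 4 DNA repair members, XPC and DDB2 were higher in scramble cells. DDB2, a subunit of the complex that detects ultraviolet lesions and the gene with the fully matching element printed above, read 253 and 242 with DMSO, 308 and 278 with CEP701, 1674 and 1677 with scramble, and 1593 and 1248 with the PRMT5 shRNA. The arms were widely separated, by 2.71 ± 0.19 on the log2 scale between their controls (6.54-fold, adjusted p = 6.06e-06). Within the drug arm DDB2 was higher with CEP701 on both arrays, but the difference of 0.23 was not called (adjusted p = 0.493). XPC, the damage sensor of nucleotide excision repair, read 488 and 511 with DMSO, 391 and 534 with CEP701, 1176 and 1055 with scramble, and 1126.5 and 887 with the PRMT5 shRNA. The arms did not overlap (difference 1.14 ± 0.21, adjusted p = 0.00191), and the call was lost only after scaling to the poly-A controls.

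The other repair members did not pass this test. POLH, a polymerase that copies past ultraviolet lesions, had means of 375 ± 8.5 (SD, n = 2) with DMSO, 285 ± 120.2 with CEP701, 604 ± 11.7 with scramble and 528 ± 121.9 with the shRNA (scramble minus DMSO 0.67, adjusted p = 0.0886). All 6 POLH probe sets above the filter were higher in scramble, by 0.11 to 3.01. With CEP701, 2 of them were higher and 4 lower than with DMSO, from -0.52 to 1.71. RRM2B, a ribonucleotide reductase subunit that supplies nucleotides for repair, had means of 1869 ± 367 with DMSO, 2755 ± 373 with CEP701, 1605 ± 158 with scramble and 1383 ± 45 with the shRNA. Its scramble minus DMSO difference was -0.21 (adjusted p = 0.390).

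Both death receptors tested were higher in scramble cells. TNFRSF10B, the TRAIL receptor DR5, read 25.01 and 17.1 with DMSO, 6.001 and 36.2 with CEP701, 3339 and 4165.5 with scramble, and 2827 and 3182 with the PRMT5 shRNA. All drug-arm values were below the filter and all shRNA-arm values were far above it. The log2 difference of 6.92 ± 0.43 (121-fold, adjusted p = 3.01e-06) was 7.43 with 1 added and 5.74 with 50. All 4 TNFRSF10B probe sets above the filter were higher in scramble, but by 1.67 to 6.92, so the size depends on the probe set. The mean over them was 3.40. With CEP701, 3 of them were higher and 1 lower than with DMSO, from -0.18 to 1.73. FAS, the receptor of the Fas ligand, read 316 and 299 with DMSO, 423 and 296 with CEP701, 1115 and 647 with scramble, and 1020.1 and 861 with the PRMT5 shRNA. The arms did not overlap, and scramble exceeded DMSO by 1.44 ± 0.28 (2.71-fold, adjusted p = 0.00262). All 5 FAS probe sets were higher in scramble, by 0.76 to 1.56.

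The other apoptosis members were divided. PHLDA3, an inhibitor of the kinase AKT, read 124 and 116 with DMSO, 127 and 116 with CEP701, 376 and 414 with scramble, and 306 and 328 with the PRMT5 shRNA. On this probe set the drug-arm arrays were nearly equal and all below the shRNA arm (difference 1.64 ± 0.24, limma adjusted p = 0.000526). Both PHLDA3 probe sets above the filter were higher in scramble, but the other was also 1.17 higher with CEP701 than with DMSO. PERP read 486 and 578 with DMSO and 406 and 446 with CEP701, above all 4 shRNA-arm arrays given earlier (scramble minus DMSO -1.19 ± 0.23, adjusted p = 0.00234). AEN read 276 and 331 with scramble and 319 and 282 with the PRMT5 shRNA. Those 4 values lay between the CEP701 and the DMSO values of AEN, and scramble was below DMSO (difference -1.06 ± 0.29, adjusted p = 0.0143).

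TRIAP1, a small protein that restrains the apoptosome and carries lipids into mitochondria, read 5372 and 5762 with DMSO, 3835 and 3209 with CEP701, 4218 and 3073 with scramble, and 4186 and 3194 with the PRMT5 shRNA. As with E2F7, the DMSO arrays stood above the 6 others (scramble minus DMSO -0.63 ± 0.20, adjusted p = 0.026; CEP701 minus DMSO -0.66 ± 0.20, adjusted p = 0.0786). APAF1, the scaffold of the apoptosome, had means of 1048 ± 183 (SD, n = 2) with DMSO, 1323 ± 106 with CEP701, 1519 ± 181 with scramble and 1693 ± 326 with the shRNA. It missed the threshold narrowly between the control cells (0.54, adjusted p = 0.0525).

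Both tested metabolic members were higher in scramble cells. TIGAR, a phosphatase that lowers glycolytic flux, read 208.5 and 213 with DMSO, 111.5 and 98.1 with CEP701, 1197 and 735 with scramble, and 1375 and 1280.4 with the PRMT5 shRNA. Scramble exceeded DMSO by 2.10 ± 0.25 (4.30-fold, adjusted p = 0.000156). The CEP701 arrays were the lowest of the 8, although that difference (-0.95 ± 0.25, adjusted p = 0.0609) passed in only 8 of 20 alternatives, among them median and poly-A scaling, both replicate blocks and the drug arm fitted alone. TP53I3 read 699 and 890.49 with scramble and 806 and 1056 with the PRMT5 shRNA, above both CEP701 arrays and further above both DMSO arrays (difference from DMSO 1.92 ± 0.23, adjusted p = 0.000141).

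Taking all 4 arrays of an arm, 15 of the 25 members (60%) had every shRNA-arm value above every drug-arm value, against 24.6% of all genes, and 2 (8%) had every value below, against 20.5%. Beside this separation stand the markers given earlier, whose summed epithelial signal was also higher in the shRNA arm. Their part in the result was not tested.

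Other genes of the pathway were read from 3 lists. Of 26 further p53 targets, 24 were tested, and 14 were higher and 4 lower in scramble than in DMSO cells, with a median of 0.82, against 25.5% and 20.3% of all genes. After quantile normalization, median scaling and poly-A scaling the counts were 12 and 4, 12 and 4, and 10 and 5. The shares of all genes were then 21.4% higher and 22% lower, 17.3% and 31%, and 14.5% and 27%. CDKN1A, which encodes the cell cycle inhibitor p21, read 186 and 258 with DMSO, 231 and 197 with CEP701, 4046 and 4229 with scramble, and 3387 and 3719 with the PRMT5 shRNA. The arms did not overlap and the control cells differed by 4.18 ± 0.20 (18.1-fold, adjusted p = 7.71e-07). TRIM22 (3.43), the protease CASP1 (3.22) and the autophagy gene DRAM1 (2.51) were next by p-value, and BCL6, a repressor named after its value was seen, differed by 5.36. With CEP701 none of these targets was called higher. RPS27L, a ribosomal protein paralogue named after its value was seen, read 17867 and 15931 against 11944 and 11849 with DMSO (0.50 ± 0.13, adjusted p = 0.0506) and passed in 10 of 20 alternatives. CEP701 lowered PMAIP1, the BH3-only protein NOXA (3284 and 2789.5 with DMSO, 1302 and 1175 with CEP701; -1.28 ± 0.26, adjusted p = 0.0277), and ASCC3, a helicase (2448 and 2381 against 1392 and 1472; -0.75 ± 0.14, adjusted p = 0.0227). Both calls were lost when any 1 drug-arm array was left out. That of PMAIP1 was also lost after quantile normalization, and that of ASCC3 with the mean of its probe sets.

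Of 21 regulators upstream of p53, 18 were tested, and 3 were higher and 8 lower in scramble cells, with a median of -0.42; 61.1% of the 18 were called, against 45.8% of all genes. After median scaling the counts were 2 and 10, and after scaling to the poly-A controls 1 and 10, beside the shares of all genes just given. With the mean of each gene's probe sets the counts were 3 and 6, against 25% and 19% of all genes. The median of the regulators was then -0.11. ATM, the kinase that signals DNA breaks to p53, was among the higher (1.45 ± 0.22, adjusted p = 0.000516). The checkpoint kinase CHEK1 (-2.16), the ubiquitin ligase RCHY1 (-1.01, but 0.01 for the mean of its probe sets) and STRAP (-1.31) were among the lower. PRMT5 itself was lower in scramble than in DMSO cells (-1.31 ± 0.35, adjusted p = 0.012). CDKN2A, whose product p14ARF blocks MDM2, was dim, at 6.57 to 147 over the 8 arrays. With CEP701, ATM was higher (0.88 ± 0.22, adjusted p = 0.0476) and CHEK2 lower (-0.97 ± 0.19, adjusted p = 0.023). Both were lost without any 1 drug-arm array, and ATM also under each of the 3 other scalings.

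Cell cycle genes that p53 lowers through p21 and the DREAM repressor ran the other way between the control cells. Of 12, 9 were lower in scramble and none higher, with a median of -1.16, against 20.3% and 25.5% of all genes. Under the other scalings 9 to 11 were lower, where 22% to 31% of all genes were. The mitotic activator CDC20 differed by -2.66 ± 0.26 (adjusted p = 4.34e-05), BUB1 by -1.77, BIRC5 by -1.50 and CKS1B by -1.30. With CEP701, limma called none of the 12 in the fit of all arrays, 3 had an unadjusted p under 0.05, and the median was -0.36. With the drug arm fitted alone, or with either replicate block, 7 were called lower, against 10.1% of all genes in the first of these fits. With the PRMT5 shRNA no gene of the 3 lists was called, and 4 had an unadjusted p under 0.05, against 6.69% of all genes. The cell cycle genes had a median of 0.29, 11 positive and 1 negative. For all genes it was 0.003, 7157 positive and 7005 negative. Without PRMT5 shRNA replicate 1 or scramble replicate 2 the cell cycle median was 0.03 or 0.06. Without PRMT5 shRNA replicate 2 or scramble replicate 1 it was 0.44 or 0.51. With the replicate block in the shRNA arm, CDC20 (0.71, adjusted p = 0.0103) and CCNB1 (0.49, adjusted p = 0.0279) were higher and PRMT5 lower, among the 1.74% of all genes called.

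**Figure D4:**
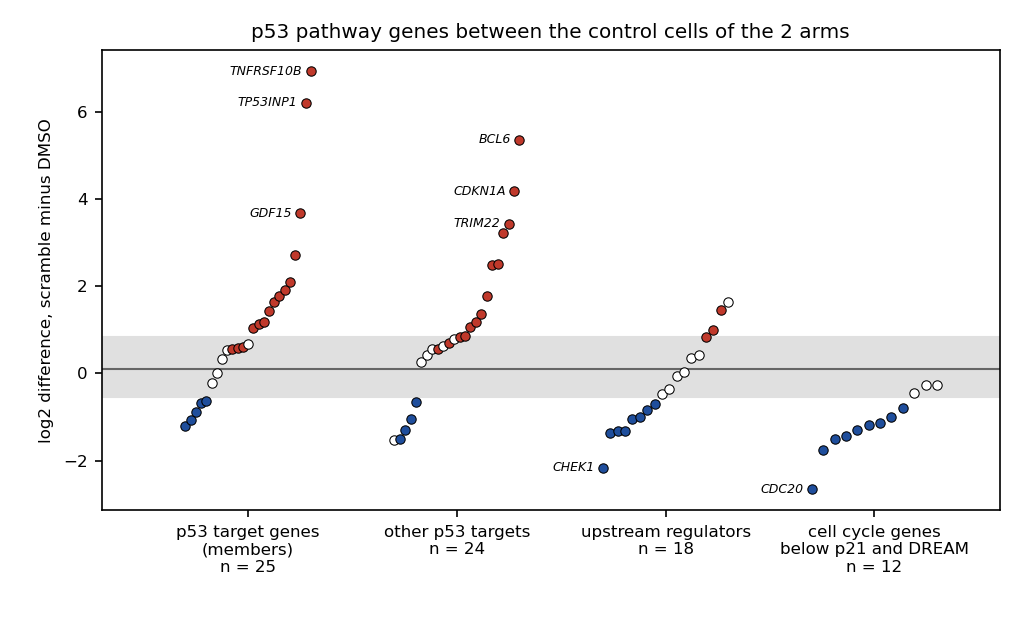
Scramble minus DMSO log2 difference of every tested gene in 4 lists of the p53 pathway, with the line and grey band giving the median (0.11) and quartiles (-0.54 and 0.83) of all genes tested. Filled points passed an adjusted p of 0.05; 15 of 25 members and 14 of 24 other targets were higher, and 9 of 12 cell cycle genes were lower.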

How the data were processed

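RNA from 8 samples in 4 groups of 2 was hybridized, after labelling from 200 ng of total RNA, to 1 Affymetrix array each. The values are intensities that the authors deposited on a linear scale, made with MAS5 in Affymetrix Expression Console, per the submitters' processing notes. The software versions and genome build are not given in the sources used here. Every array had a trimmed mean of 500.1.

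Of 54675 probe sets, 41097 named 1 gene, 1801 several and 11777 none in the platform annotation. Only the first were used, with symbols updated through RefSeq. Each gene was represented by the probe set of highest mean log2(signal + 10) among those whose signal passed 60 (the overall median value) on 2 or more arrays. Differences were tested in R 4.3.3 with limma 3.58.1, using lmFit and a trended eBayes, with all 8 arrays and 4 groups in 1 model and Benjamini-Hochberg adjustment over 14162 genes at 0.05. A fold is on the log2(signal + 10) scale and understates changes of dim genes. The number of arrays limits the precision. The code was tested on simulated data.

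All members were named, with every array's value for those called in any comparison and for MDM2 and MDM4. PRMT5, CDKN2A and up to 4 called genes per list and comparison, by lowest p, were named besides. The members and lists were chosen with earlier results of these data known. Where PRMT5 shRNA and scramble samples share a title suffix, that suffix was a replicate block in an alternative. Deviations from group means correlated at 0.323 within these pairs and at -0.01 within same-numbered pairs of the drug arm. Other alternatives changed the scaling, the number added, the filter, the choice of probe set and the arrays fitted.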

Additional observations from a re-analysis of the deposited data

Results flagged for a closer look

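TP53INP1 responded differently to the 2 interventions by the test of the difference itself. Its log2 difference was 3.19 between CEP701 and DMSO and -0.06 between PRMT5 shRNA and scramble, so the effects differed by 3.25 (limma adjusted p = 0.0151). The test was lost without any 1 drug-arm array.

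ASCC3, a helicase subunit and p53 target outside the members, also differed between the effects, by -1.01 (limma adjusted p = 0.0476). With CEP701 it fell by 0.75 on the log2 scale, with both treated arrays below both DMSO arrays. The difference was called in 9 of 19 alternatives, with adjusted p from 0.00216 to 0.207.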

How the results depend on the processing

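Of 25 members, 3 were called for CEP701, which became 6 after median scaling, 5 after scaling to the poly-A controls, 10 with the drug arm fitted alone, and 10 with a replicate block in both arms or in the shRNA arm only. The share of all genes called was 5.78% as deposited, 6.16% and 8.3% after these scalings, and 22.7% with the drug arm fitted alone. It was 21.5% with the block in both arms and 22.3% with it in the shRNA arm only. Leaving out 1 drug-arm array lowered the counts for members and for all genes. For the PRMT5 shRNA 0 were called in every setting that kept all arrays, except a replicate block in both arms or in the shRNA arm only. There 1 (ZMAT3) passed, and 1.5% and 1.74% of all genes did. The difference of effects was called for 1 member, and for 2 after median scaling, with 50 added and with the stricter filter. The shares of all genes were 1.43%, 0.981%, 1.64% and 2.29%. With a replicate block in both arms, 9 members and 16.2% of all genes were called. With it in the shRNA arm only, 10 members and 17.3% of all genes were. Leaving out 1 drug-arm array lowered both counts. Scramble minus DMSO gave 20 members, 14 to 22 in the settings that kept all arrays, and 11 to 21 without 1 array. GDF15 reversed to -0.55 (adjusted p = 0.559) without the probe sets whose suffix marks shared probes, because its second probe set then stood for it. A group left with 1 array was assumed to vary like the others. Causes of the other changes were not tested. Signals under 60 leave fold sizes open to the number added.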
